A study of Mus musculus with 6 samples.

Results

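The 6 genes of the platelet-derived growth factor (PDGF) system measured here were the receptors *Pdgfra* and *Pdgfrb* and the ligands *Pdgfa*, *Pdgfb*, *Pdgfc* and *Pdgfd*, 6 of the 33696 genes in the files, chosen by symbol. They were followed in single cells of mouse Achilles tendon before and after tenotomy, a cut through the tendon after which ectopic cartilage and bone form (heterotopic ossification). Mice carried *Gli1*-CreERT2 and the Ai9 reporter, so that tamoxifen switches on a red fluorescent protein for good in cells in which the *Gli1* promoter is active, and in all their progeny. Every mouse, controls included, carried both alleles and received tamoxifen, which the study's methods place a week before surgery. Uninjured tendon and tendon at 7 and 21 days post-injury (dpi), by the labels from 8 mice per time, was sorted for cells with (*Gli1*+) and without (*Gli1*-) the reporter, and each sort and time gave 1 library of pooled mice.

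PDGF ligands are secreted dimers that bring receptor chains together at the cell surface, where the receptors, which are tyrosine kinases, phosphorylate each other and signal through PI3K, PLCγ and the Ras pathway. PDGFRα binds mainly PDGF-AA and PDGF-CC and marks fibroblasts and other mesenchymal cells of connective tissue. PDGFRβ binds PDGF-BB and PDGF-DD and is best known in pericytes and vascular smooth muscle, which growing endothelium recruits with PDGF-B. PDGF-C and PDGF-D carry a CUB domain and must be cut by a protease before they bind.

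A level is the number of unique molecular identifiers (UMIs, 1 per captured transcript) of a gene summed over the cells of a class in a library, per 1000000 UMIs of that class (CPM). With 1 library per condition there is no spread between mice and no test. The 95% intervals in brackets, exact Poisson for levels and exact binomial for log2 ratios and shares, cover counting error only. Values of different genes are set side by side without ranking them, since 3 prime UMI counts hold no length correction and genes differ in capture. After filters, 7057 to 10882 cells per library were kept, with a median of 4297 to 9775 UMIs per cell. Clusters were named from markers that included none of the 6 genes: mesenchymal-like (*Col1a1*, *Dcn* and others), and within them tenocyte-like (*Scx*, *Tnmd*, *Fmod*) and chondrocyte-like (*Col2a1*), and further mural-like (*Rgs5*, pericytes and smooth muscle), endothelial-like (*Cdh5*), epidermal-like (*Krt14*), immune-like (*Ptprc*) and Schwann-like. Chondrocyte-like cells also held bone markers, as given below.

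Some libraries stand apart. Series of 3 values below follow the times uninjured, 7 dpi and 21 dpi, and pairs of ratios 7 and 21 dpi. Immune-like cells were 53.1% of the kept cells of uninjured *Gli1*+ tendon and at most 0.258% of every other library, and epidermal-like cells were 19.7% of *Gli1*+ cells at 7 dpi. *Xist* without Y-linked transcripts was found in 68.7% of uninjured *Gli1*+ cells and in none of the uninjured *Gli1*- cells, in at most 0.011% of cells at 7 dpi and in 92.7% and 90.5% of *Gli1*+ and *Gli1*- cells at 21 dpi, although the labels state equal numbers of each sex. Sex of the mice therefore cannot be told apart from time between 7 and 21 dpi, nor from sort in uninjured tendon, whereas the sorts were alike in sex at 7 dpi and at 21 dpi. The uninjured shares go against both uninjured libraries being fractions of the same mice. Ratios over uninjured in mesenchymal-like cells are therefore followed by values in cells of 1 sex. The *Gli1* transcript itself stood at 6.55, 2.17 and 4.10 CPM in uninjured, 7 dpi and 21 dpi *Gli1*+ tendon and at 7.64, 2.57 and 4.03 CPM in *Gli1*- tendon, so it does not separate the sorts, which rest on the reporter. *Krt14* stood at 673 CPM in mesenchymal-like cells of *Gli1*+ tendon at 7 dpi against 6.84 CPM in uninjured *Gli1*+ tendon, and the 6 epidermal markers together at 2145 CPM. At most 32 cell barcodes were shared by any 2 libraries. The clusters that make up a class also changed with time: the 2 largest at 7 dpi had 0 uninjured cells in *Gli1*+ tendon and 0 and 42 in *Gli1*- tendon, so a class value after injury describes other clusters than before it.

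Each of the 6 genes had its highest level in the same cell class in all 6 libraries, among the mesenchymal-like, endothelial-like, mural-like, epidermal-like and immune-like classes. For *Pdgfc* this held in 4 of 6 libraries after thinning of each cell to 2000 UMIs and in 5 of 6 without doublet removal, but in only 1 of 6 when single-marker gates replaced the clusters. Under those gates *Pdgfrb*, *Pdgfa*, *Pdgfb* and *Pdgfd* were highest in the named class in 5 of 6 libraries and *Pdgfra* in 6 of 6. The class was mesenchymal-like for *Pdgfra* and *Pdgfc*, mural-like for *Pdgfrb* and *Pdgfa*, and endothelial-like for *Pdgfb* and *Pdgfd*. Schwann-like cells, clustered in *Gli1*- tendon only, exceeded the mural-like cells for *Pdgfa* in uninjured tendon and at 7 dpi. The plot of levels by class shows these positions for each library.

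**Figure D1:**
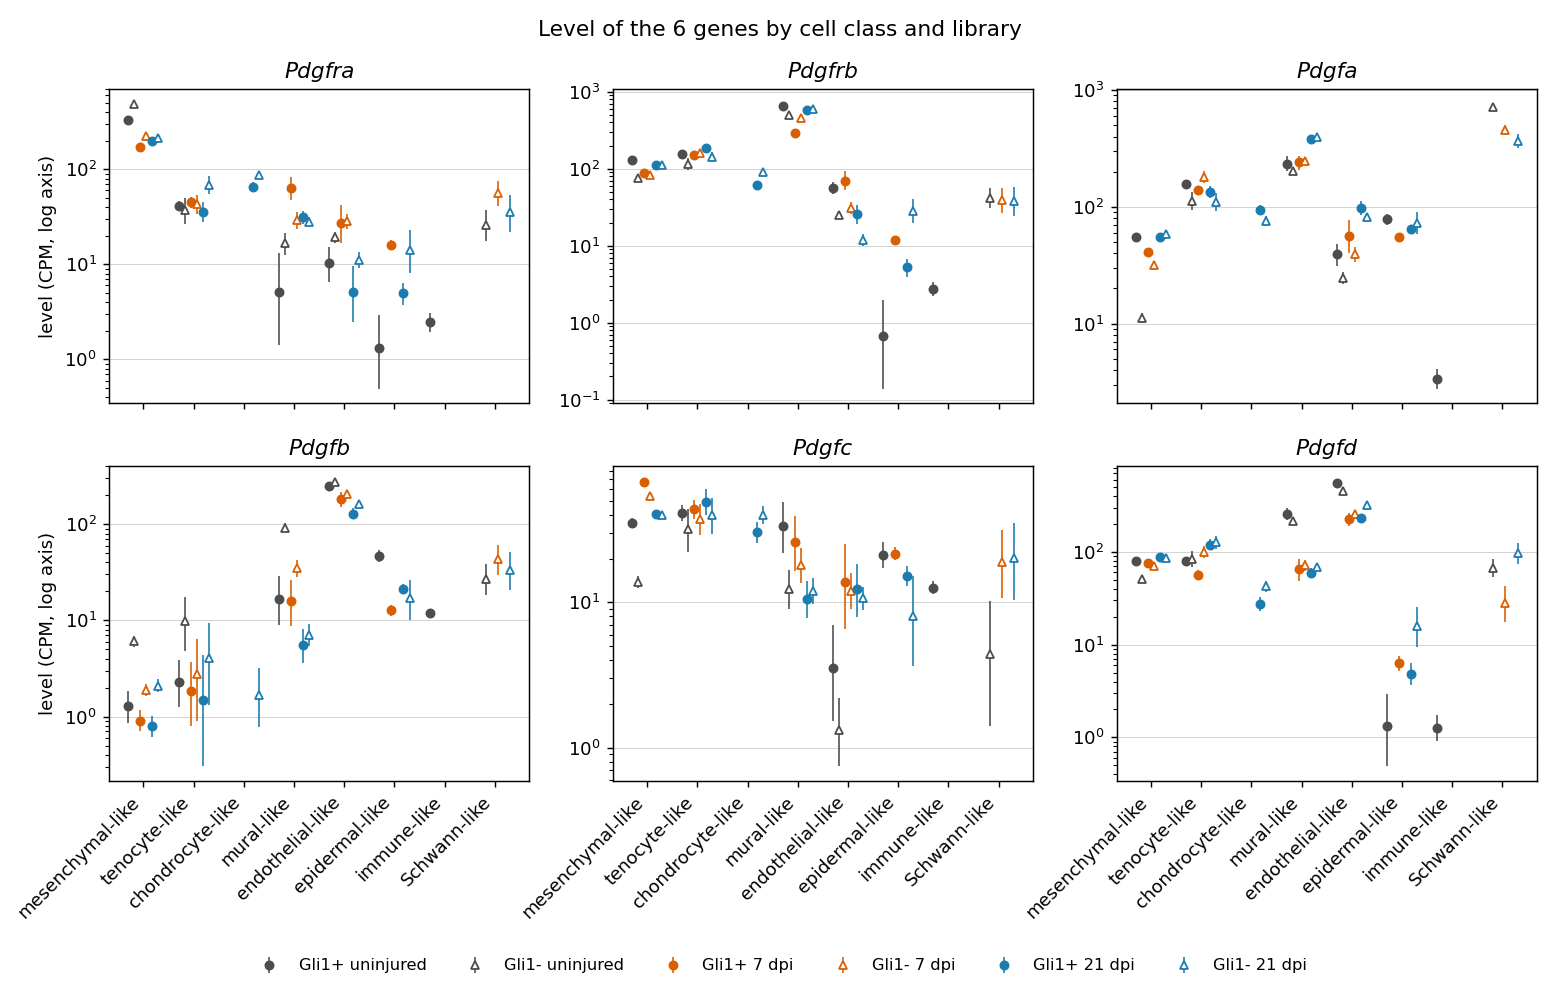
Level of each gene (CPM, log axis) in the cell classes with at least 50 cells, for each of the 6 libraries; bars are exact Poisson 95% intervals, tenocyte-like and chondrocyte-like cells are also part of the mesenchymal-like class, and a level of 0 is not drawn. *Pdgfra* is highest in mesenchymal-like cells, where it lies between 174 and 489 CPM, and *Pdgfb* in endothelial-like cells, where it lies between 129 and 275 CPM.

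The receptor *Pdgfra* was almost confined to mesenchymal-like cells, which held 97.2% to 98.7% of its UMIs in each library while making up 34.9% to 82.5% of the cells. Its level there was 332 [325, 340], 174 [171, 177] and 197 [194, 200] CPM in *Gli1*+ tendon and 489 [482, 496], 223 [220, 226] and 211 [208, 214] CPM in *Gli1*- tendon. Both uninjured libraries stood above all 4 injured ones. Outside the mesenchymal-like class, epidermal-like cells of *Gli1*+ tendon held 1.33 [0.49, 2.90], 15.9 [14.1, 17.9] and 4.95 [3.73, 6.45] CPM. A low level before injury therefore sets no floor for 7 dpi. Immune-like cells of uninjured *Gli1*+ tendon, which should lack the receptor, held 2.45 CPM, and 0.323% of them had a UMI after every cell was thinned to 2000 UMIs. In mesenchymal-like cells thinned in the same way this share was 40.8%, 28.8% and 30.3% in *Gli1*+ tendon and 58.0%, 34.9% and 32.4% in *Gli1*- tendon.

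Within the mesenchymal-like class, *Pdgfra* was lowest where tendon genes were highest. Tenocyte-like cells held 41.3, 44.9 and 35.97 CPM in *Gli1*+ tendon and 37.2, 43.3 and 68.9 CPM in *Gli1*- tendon, and the intervals overlapped in all but the last of these libraries. Cells with a UMI of *Ly6a*, the gene of the stem cell surface protein Sca-1, and none of *Scx*, the transcription factor of the tendon lineage, held 408, 211 and 248 CPM in *Gli1*+ tendon and 501, 266 and 253 CPM in *Gli1*- tendon. Cells with *Scx* and no *Ly6a* held 22.8, 60.7 and 106 CPM in *Gli1*+ tendon and 34.5, 67.9 and 109 CPM in *Gli1*- tendon. *Pdgfra* was thus 17.9-fold and 14.5-fold lower in *Scx*-only than in *Ly6a*-only cells of uninjured *Gli1*+ and *Gli1*- tendon, 3.47-fold and 3.91-fold lower at 7 dpi and 2.33-fold lower in both sorts at 21 dpi. By these gates the gap was narrower at each later time in both sorts, with *Ly6a*-only cells lower and *Scx*-only cells higher than in uninjured tendon. *Scx*-only cells numbered 347, 393 and 469 in *Gli1*+ tendon and 76, 117 and 217 in *Gli1*- tendon. The gates used UMIs that were not thinned. The median depth of mesenchymal-like *Gli1*- cells was 5786.5, 11499 and 8990 UMIs, so the gates need not select like cells across times. By cluster, *Pdgfra* was 10.54-fold, 4.05-fold and 5.59-fold lower in tenocyte-like than in the other mesenchymal-like cells of *Gli1*+ tendon, wider at 21 than at 7 dpi with overlapping intervals, and 13.5-fold, 5.22-fold and 3.09-fold lower in *Gli1*- tendon.

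Over 40 cluster-by-library units, each a mesenchymal-like cluster with at least 50 cells in a library, *Pdgfra* ranged from 33.6 to 845 CPM. The same cluster enters once for each library in which it had that many cells. Of the 6 clusters with at least 50 cells at all 3 times, 4 were lower at both later times than before injury. These held 845, 380 and 528 CPM in *Gli1*+ tendon and, in *Gli1*- tendon, 516, 368 and 403 CPM (led by *Rtl4* and *Pcsk6*), 577, 386 and 428 CPM (*Trf* and *Apod*) and 312, 208 and 200.4 CPM (*Sfrp4* and *Cilp2*). The *Gli1*- cluster led by *C7*, *Inmt* and *Gsn* held 482, 516 and 427 CPM, and the other was the *Gli1*- tenocyte-like cluster described above. Clusters made mostly of 7 dpi cells differed among themselves at that time. A *Gli1*+ tenocyte-like cluster held 45.2 CPM. Those with *Crabp1* and the tenascin genes *Tnn* and *Tnc* among their top 10 genes held 134 CPM in *Gli1*+ tendon and 131 CPM in *Gli1*- tendon, and those with *Klk1*, *Plac8* and *Pgr* among them held 320 and 315 CPM. The pair of clusters led by the acute-phase gene *Saa3* and the collagenase gene *Mmp13*, made almost only of 21 dpi cells, held 242 and 246 CPM. Across the 40 values, log2 *Pdgfra* went with log2 *Scx* at r = -0.755 (Spearman's rho -0.760) and with log2 *Pdgfa* at r = -0.799 (rho -0.818). These points share libraries, clusters and depth, so the correlations are a description without a p.

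**Figure D2:**
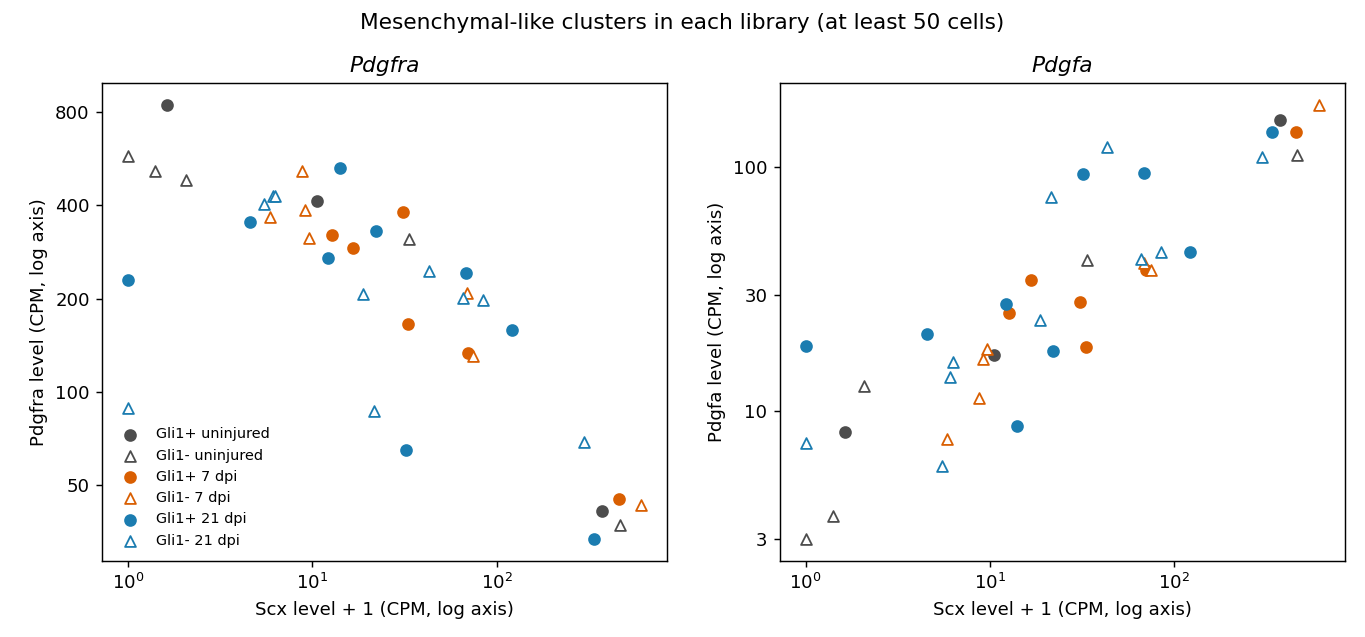
Level of *Pdgfra* (left) and *Pdgfa* (right) against that of *Scx* plus 1 (all CPM, log axes). Points are 40 cluster-by-library units, each a mesenchymal-like cluster with at least 50 cells in a library. Filled circles are *Gli1*+ and open triangles *Gli1*- libraries, colored by time. Clusters high in *Scx* are low in *Pdgfra* and high in *Pdgfa*.

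Against uninjured tendon, the log2 ratio of *Pdgfra* in mesenchymal-like cells was -0.94 [-0.98, -0.89] at 7 dpi and -0.76 [-0.79, -0.72] at 21 dpi in *Gli1*+ cells and -1.13 [-1.16, -1.11] and -1.21 [-1.24, -1.18] in *Gli1*- cells. All 4 ratios lay below 0 under every alternative that gave a value, and those of *Gli1*- cells fell short of 2-fold at Leiden resolution 1.0, at -0.90 and -0.99, and the 7 dpi ratio also without doublet removal (-0.96), with means of per-cell CPM (-0.89) and after thinning (-0.95). At resolution 1.0 and without doublet removal, large uninjured *Gli1*- clusters carried no name and were left out, and with them put back the 7 dpi ratio was -1.13 and -1.15. With TMM scaling, which sets the bulk of genes equal between libraries, the *Gli1*+ ratios were -0.64 at 7 dpi and -0.30 at 21 dpi. In cells of 1 sex the ratio was -0.74 at 7 dpi (male cells) and -0.87 at 21 dpi (female cells) in *Gli1*+ tendon and -1.21 at 7 dpi (male cells) in *Gli1*- tendon. The uninjured *Gli1*- library held no female cells, so 21 dpi has no such value there. Without the tenocyte-like and chondrocyte-like clusters, which were 29.5%, 11.4% and 9.45% of mesenchymal-like *Gli1*+ cells, the ratios in *Gli1*+ cells were -1.29 and -1.09. These shares depend on the naming of clusters: the largest *Gli1*+ cluster of 21 dpi, 3831 cells with *Tnmd* among its top 10 genes, was not named tenocyte-like, but at Leiden resolution 1.0 2362 of its cells were, and the shares were 31.3%, 11.6% and 38.8%. Without the clusters so named, and with the unnamed *Gli1*- cluster put back, the ratios were -1.31 and -0.79 in *Gli1*+ cells and -1.15 and -0.90 in *Gli1*- cells.

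The receptor *Pdgfrb* had its highest level in mural-like cells, at 653 [597, 712], 288 [254, 326] and 583 [562, 606] CPM in *Gli1*+ tendon and 503 [480, 527], 454 [430, 478] and 602 [585, 619] CPM in *Gli1*- tendon. The 7 dpi value was the lowest in both sorts. In the mural-like cells of *Gli1*+ tendon at 7 dpi the 6 epidermal markers summed to 4356 CPM, against 25.8 CPM in uninjured and 186 CPM in 21 dpi *Gli1*+ tendon. The 6 mesenchymal markers in mural-like cells summed to 1597, 17484 and 12075 CPM in *Gli1*+ tendon and 1470, 11702 and 11732 CPM in *Gli1*- tendon, and the 6 mural markers to 9064, 4647 and 5714 CPM and 9266, 6444 and 6021 CPM. All 6 of both lists were at 10 CPM or more each time, and the part of these transcripts in the mural-like values of *Pdgfrb*, *Pdgfa* and *Pdgfd* was not tested. *Gli1*- mural-like cells formed 2 clusters. The one led by *Gm13889*, *Myh11* and *Ednrb* held 229, 433 and 595 CPM in time order, and the one with *Kcnj8* and *Abcc9* as its top genes held 654, 574 and 842 CPM. The latter was 671 of 917 mural-like cells in uninjured tendon and 97 of 1039 at 21 dpi. The mural-like level was 3.31-fold to 6.62-fold that of the mesenchymal-like cells of the same library. Because mesenchymal-like cells were far more numerous, they nevertheless held 57.0% to 92.3% of all *Pdgfrb* UMIs, and mural-like cells 3.78% to 36.7%.

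In mesenchymal-like cells *Pdgfrb* stood at 131 [127, 136], 87.1 [84.9, 89.3] and 111 [109, 114] CPM in *Gli1*+ and at 75.9 [73.2, 78.8], 82.7 [80.9, 84.5] and 111 [109, 113] CPM in *Gli1*- tendon. The sorts differed in uninjured tendon and overlapped at 21 dpi. In tenocyte-like cells *Pdgfrb* stood at 157, 152 and 184 CPM in *Gli1*+ tendon and 115, 161 and 144 CPM in *Gli1*- tendon. These values lay above the mesenchymal-like class as a whole in every library, whereas those of *Pdgfra* lay below it. *Scx*-only cells held 91.01 to 161 CPM and *Ly6a*-only cells 74.3 to 119 CPM, with *Scx*-only cells lower at 21 dpi in *Gli1*- tendon only. The *Gli1*+ cluster led by *Hpse2*, *Gpc5* and *Coch* had the highest mesenchymal-like value, 247 CPM at 21 dpi. The log2 ratio over uninjured was -0.59 [-0.65, -0.53] and -0.24 [-0.30, -0.18] in *Gli1*+ tendon and 0.12 [0.06, 0.19] and 0.55 [0.49, 0.61] in *Gli1*- tendon at 7 and 21 dpi, all within 2-fold. With TMM scaling, which sets the bulk of genes equal between libraries, the *Gli1*+ ratio at 21 dpi was 0.22, on the other side of 0, and without doublet removal the *Gli1*- ratio at 7 dpi was -0.13, or 0.14 with the unnamed clusters put back. In cells of 1 sex the ratios were -0.51 and -0.25 in *Gli1*+ tendon, and the 7 dpi ratio was 0.09 in *Gli1*- tendon.

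UMIs of both receptors were found in 8.71% [7.62, 9.91], 4.66% [4.17, 5.19] and 6.54% [6.003, 7.11] of thinned mesenchymal-like cells of *Gli1*+ tendon and in 8.14% [7.44, 8.89], 5.60% [5.10, 6.13] and 6.92% [6.35, 7.52] of *Gli1*- tendon. The product of the single shares was 8.97%, 4.61% and 6.28% and 7.89%, 5.47% and 6.48%, within the interval each time. At least 1 of the receptors was detected in 40.1% to 63.4% of these cells. At this depth the share of cells without a UMI says little about cells without the transcript.

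**Figure D3:**
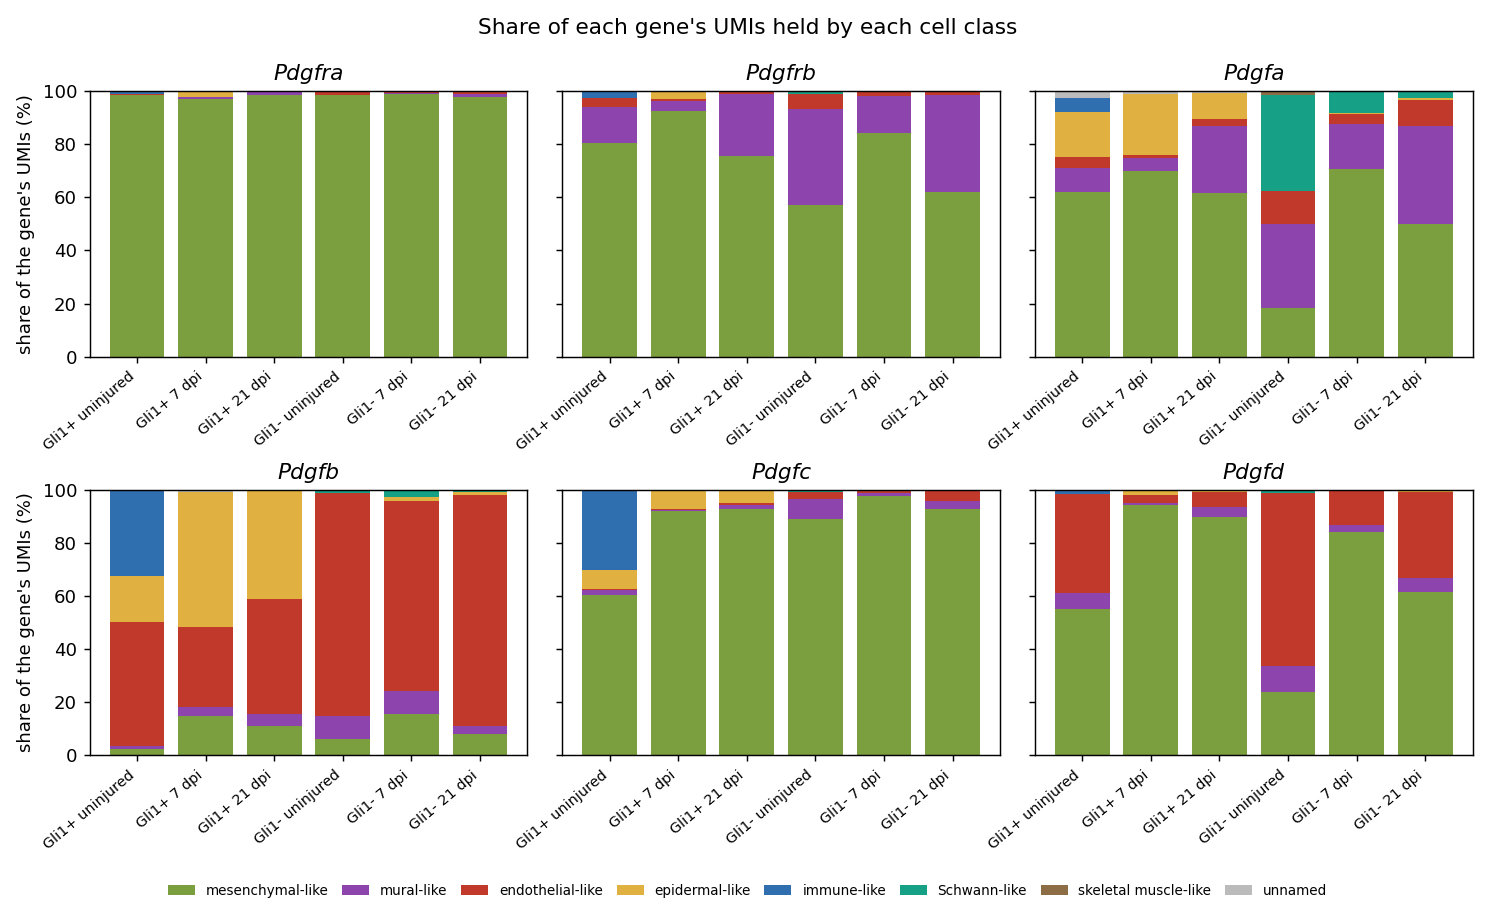
Share (%) of each gene's UMIs held by each cell class in the 6 libraries, stacked to all kept cells. *Pdgfra* is mesenchymal-like throughout, with 97.2% or more. *Pdgfb* is held mostly by endothelial-like cells in *Gli1*- tendon and by endothelial-like, epidermal-like and, before injury, immune-like cells in *Gli1*+ tendon.

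Among the ligands, *Pdgfa* had its highest levels outside the mesenchymal-like class. Schwann-like cells of *Gli1*- tendon held 721 [672, 772], 454 [408, 504] and 365 [318, 417] CPM in uninjured tendon and at 7 and 21 dpi, with each later value below the one before. The 6 mesenchymal markers in these cells summed to 2279, 12421 and 13703 CPM, all 6 at 10 CPM or more each time. The 5 Schwann markers summed to 10630, 4699 and 4869 CPM. The part of these shifts in the result was not tested. Within the class, the cluster led by *Lyz2*, *Gm20754* and *Pou3f1* held 1267, 770.1 and 926 CPM, and it was 159 of 396, 137 of 240 and 68 of 204 Schwann-like cells. Mural-like cells held 235, 240 and 379 CPM in *Gli1*+ tendon and 201, 248 and 397 CPM in *Gli1*- tendon, and 21 dpi was the highest in both sorts. In *Gli1*- tendon this order did not hold within clusters, where the *Myh11* cluster held 403, 283 and 407 CPM and the *Kcnj8* cluster 89.2, 46.9 and 74.6 CPM. Endothelial-like cells were also highest at 21 dpi, with 39.1, 56.5 and 98.2 CPM and 24.7, 39.1 and 81.5 CPM. Their log2 ratio at 21 dpi over uninjured was 1.33 [0.96, 1.71] in *Gli1*+ tendon and 1.72 [1.53, 1.92] in *Gli1*- tendon. With single-marker gates these ratios were -0.017 and 0.93, and in *Gli1*+ female cells 0.96. In the *Gli1*- cluster led by *Cd36*, *Timp4* and *Gpihbp1* the values were 18.4, 26.5 and 33.0 CPM, and in the cluster led by *Selp*, *Mctp1* and *Sele* they were 16.5, 44.8 and 95.8 CPM, each highest at 21 dpi, whereas the cluster led by *Ccl21a*, *Mmrn1* and *Lyve1* was highest before injury, at 135.02, 54.1 and 58.4 CPM.

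In the mesenchymal-like class, *Pdgfa* was highest where *Pdgfra* was lowest. Tenocyte-like cells held 155, 139 and 134 CPM in *Gli1*+ tendon and 112, 180 and 110 CPM in *Gli1*- tendon. *Scx*-only cells held 184, 126 and 107 CPM in *Gli1*+ tendon and 128, 94.5 and 90.6 CPM in *Gli1*- tendon, against 17.5, 32.6 and 37.6 CPM and 7.08, 25.04 and 48.6 CPM in *Ly6a*-only cells. The excess of *Scx*-only over *Ly6a*-only cells was 10.53-fold and 18.05-fold in uninjured tendon, 3.85-fold and 3.77-fold at 7 dpi and 2.83-fold and 1.87-fold at 21 dpi. The limits of these gates in cell number and depth, given above, hold here too. Across the 40 cluster values, log2 *Pdgfa* went with log2 *Scx* at r = 0.879 (rho 0.890). The *Saa3* clusters of 21 dpi held 94.4 CPM in *Gli1*+ tendon and 121 CPM in *Gli1*- tendon, and the chondrocyte-like cells of 21 dpi held 93.8 and 75.5 CPM. All 6 osteoblast markers (*Bglap*, *Ibsp* and others) were at 10 CPM or more in these chondrocyte-like cells. They summed to 16576 CPM in *Gli1*+ and 7348 CPM in *Gli1*- tendon, so the class mixes cartilage and bone genes.

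Over the whole mesenchymal-like class, *Pdgfa* was 55.3 [52.3, 58.4], 41.0 [39.6, 42.5] and 55.4 [53.8, 57.1] CPM in *Gli1*+ tendon but 11.2 [10.1, 12.3], 31.7 [30.6, 32.8] and 58.3 [56.6, 60.0] CPM in *Gli1*- tendon. The uninjured *Gli1*- library was far below the other 5. The log2 ratios over uninjured were -0.43 [-0.52, -0.33] and 0.00 [-0.09, 0.10] in *Gli1*+ tendon and 1.505 [1.36, 1.66] and 2.38 [2.24, 2.53] in *Gli1*- tendon. Tenocyte-like cells made up 683 of the 2463 mesenchymal-like cells of uninjured *Gli1*+ tendon and 190 of the 5806 of uninjured *Gli1*- tendon. Without tenocyte-like and chondrocyte-like clusters, *Pdgfa* in *Gli1*+ cells was 16.5, 34.7 and 50.8 CPM, and the log2 ratios turned to 1.08 and 1.62, the same direction as the 2.04 and 2.99 of *Gli1*- cells. The large 21 dpi *Gli1*+ cluster with *Tnmd* stayed in the class here, at 45.1 CPM of *Pdgfa*, so that the times were not stripped alike. Without the clusters named tenocyte-like and chondrocyte-like at resolution 1.0, which took most of its cells, the ratios were 1.12 and 1.57 in *Gli1*+ tendon and 2.05 and 2.97 in *Gli1*- tendon. In cells of 1 sex the *Gli1*+ ratios were -0.83 at 7 dpi and 0.20 at 21 dpi. The *Gli1*- ratio at 7 dpi was 0.93 at Leiden resolution 1.0, 0.87 with single-marker gates and 0.31 without doublet removal. In the first and last of these settings, *Gli1*- clusters in which every cell shared with the reported clustering was mesenchymal-like carried no name and were left out of the class. At resolution 1.0 this was 1 cluster of 2853 cells, 2712 of them uninjured, and without doublet removal the 2 largest had 3285 and 1466 cells. With these clusters put back the ratio was 1.505 and 1.49.

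**Figure D4:**
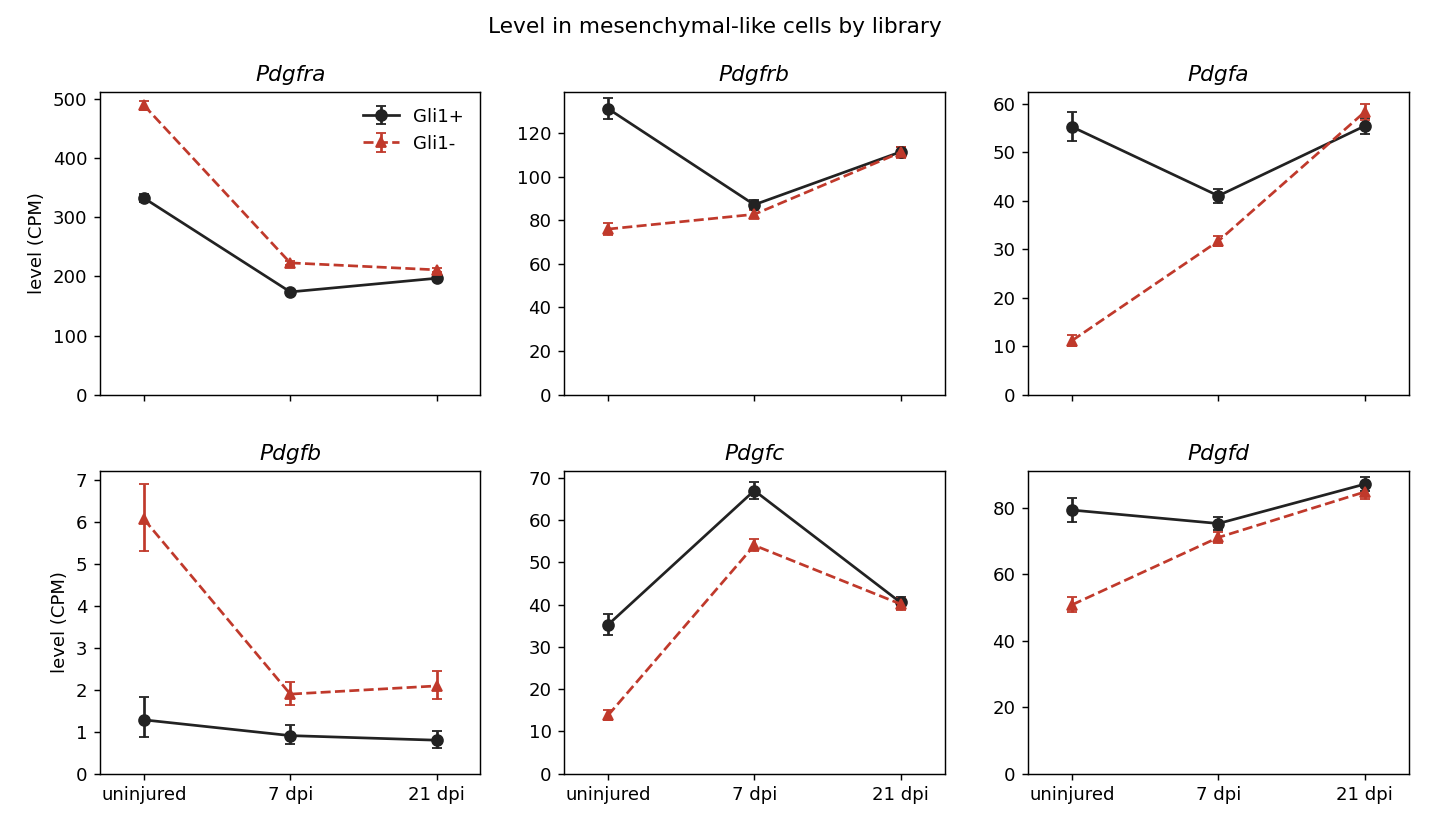
Level (CPM) of each gene in the mesenchymal-like cells of uninjured tendon and at 7 and 21 dpi, for *Gli1*+ (circles) and *Gli1*- (triangles) libraries, 1 library per point, with exact Poisson 95% intervals. The sorts lie apart in uninjured tendon and close together at 21 dpi for every gene but *Pdgfb*.

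*Pdgfc* was chiefly a mesenchymal-like transcript, with 88.8% to 97.6% of its UMIs there in 5 libraries and 60.2% in uninjured *Gli1*+ tendon, where immune-like cells held 29.7%. Among those, the cluster led by the macrophage genes *Pf4*, *Lyz2* and *Mrc1* held 93.4 CPM. In both uninjured libraries the interval of mural-like cells, at 33.5 and 12.4 CPM, overlapped that of mesenchymal-like cells. Mesenchymal-like levels were 35.2 [32.9, 37.7], 67.0 [65.1, 68.9] and 40.5 [39.1, 41.9] CPM in *Gli1*+ tendon and 13.8 [12.6, 15.1], 54.0 [52.6, 55.5] and 40.1 [38.7, 41.6] CPM in *Gli1*- tendon. Both sorts were highest at 7 dpi. The log2 ratio over uninjured was 0.93 [0.82, 1.03] and 0.20 [0.09, 0.31] in *Gli1*+ tendon and 1.97 [1.84, 2.10] and 1.54 [1.40, 1.68] in *Gli1*- tendon, the last of them 0.82 at Leiden resolution 1.0 and 1.54 with the unnamed cluster put back.

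The 7 dpi level of *Pdgfc* was unevenly spread over clusters. The *Crabp1* and *Tnn* clusters held 85.9 CPM in *Gli1*+ tendon and 84.3 CPM in *Gli1*- tendon, and the *Klk1* and *Plac8* clusters of the same libraries 19.9 and 17.1 CPM. *Pdgfra* had the opposite order in these clusters, as given above. Tenocyte-like cells held 41.1, 43.5 and 49.3 CPM in *Gli1*+ tendon and 31.9, 37.3 and 39.7 CPM in *Gli1*- tendon, with overlapping intervals within each sort. In cells of 1 sex the 7 dpi ratio was 1.08 in *Gli1*+ tendon and 1.99 in *Gli1*- tendon, and the 21 dpi ratio in *Gli1*+ tendon was 0.13, with an interval that includes 0.

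*Pdgfb*, which endothelium uses to recruit pericytes, was an endothelial-like transcript, at 248 [228, 269], 182 [152, 216] and 129 [113, 146] CPM in *Gli1*+ tendon and 275 [265, 285], 206 [192, 220] and 162 [154, 169] CPM in *Gli1*- tendon. Levels were lower at 7 dpi than in uninjured tendon and lower again at 21 dpi in both sorts, with log2 ratios over uninjured of -0.45 [-0.73, -0.17] and -0.94 [-1.17, -0.73] in *Gli1*+ tendon and -0.42 [-0.53, -0.31] and -0.77 [-0.85, -0.68] in *Gli1*- tendon. With single-marker gates the *Gli1*- ratios were -1.01 and -0.41, so that 7 dpi was the lower of the 2 times. In *Gli1*- tendon the *Cd36* cluster held 307, 277 and 264 CPM and was 3375 of 3632 endothelial-like cells before and 810 of 1849 at 21 dpi, and the *Selp* cluster held 99.8, 191 and 158 CPM, so that it was higher at 21 dpi than before injury while the class was lower. The *Ccl21a* cluster, with genes of lymphatic endothelium, held 48.2, 44.4 and 34.7 CPM. In the endothelial-like class the 6 endothelial markers summed to 4629, 3262 and 3538 CPM in *Gli1*+ tendon and 4506, 3658 and 3488 CPM in *Gli1*- tendon. The 6 mural markers there summed to 1748, 1112 and 415 CPM and 1299, 523 and 302 CPM, and the 6 mesenchymal markers to 313, 7788 and 2183 CPM and 1092, 7156 and 2887 CPM. Epidermal markers stood at 4152 CPM in these cells at 7 dpi in *Gli1*+ tendon. The part of these transcripts in the endothelial-like values of *Pdgfa*, *Pdgfb* and *Pdgfd* was not tested. Epidermal-like cells of *Gli1*+ tendon held 46.6, 12.7 and 21.3 CPM.

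In mesenchymal-like cells *Pdgfb* was near its floor, at 1.28, 0.908 and 0.799 CPM in *Gli1*+ tendon and 6.06, 1.90 and 2.09 CPM in *Gli1*- tendon, with a UMI in 0.154% to 1.57% of thinned cells. Its log2 ratios there past 2-fold, -1.68 and -1.53 in *Gli1*- cells, rest on the uninjured *Gli1*- library, and in male cells the 7 dpi ratio was -1.64. In *Gli1*+ cells of 1 sex the ratios were -0.62 and -0.15 on 8 and 12 uninjured UMIs, and both intervals include 0. All 6 endothelial markers were at 10 CPM or more in the mesenchymal-like cells of that library and their summed level was 207 CPM, against 26.3 to 108 CPM and 1 to 3 such markers in the other 5. That library also held the most endothelial-like cells, 33.4%. The part of endothelial RNA in these values was not tested. Likewise, mural-like cells of uninjured *Gli1*- tendon held 92.1 CPM of *Pdgfb*, and the *Kcnj8* cluster, most of these cells, held *Cdh5* at 428 CPM over its 3 libraries.

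*Pdgfd* was the other endothelial-like ligand, at 555 [525, 587], 225 [191, 262] and 233 [212, 256] CPM in *Gli1*+ tendon and 457 [445, 470], 256 [241, 272] and 323 [312, 334] CPM in *Gli1*- tendon. Mural-like cells held 257, 64.5 and 59.0 CPM and 214, 71.9 and 69.1 CPM. Over both classes and both sorts the uninjured level was highest. The log2 ratios in mural-like cells were -1.99 [-2.44, -1.56] and -2.12 [-2.39, -1.85] in *Gli1*+ tendon and -1.57 [-1.79, -1.35] and -1.63 [-1.79, -1.47] in *Gli1*- tendon. In endothelial-like cells they were -1.31 [-1.55, -1.07] and -1.25 [-1.41, -1.10] in *Gli1*+ tendon and -0.84 [-0.93, -0.74] and -0.50 [-0.57, -0.44] in *Gli1*- tendon. All 8 lay below 0 under every alternative run, but with single-marker gates the *Gli1*- mural-like ratios were -0.55 and -0.58. With these gates the 21 dpi endothelial-like ratios were -0.31 in *Gli1*+ and -0.07 in *Gli1*- tendon. With means of per-cell CPM the mural-like ratios were -1.20 and -1.13 in *Gli1*+ tendon and -1.07 and -0.95 in *Gli1*- tendon. The 21 dpi endothelial-like ratios were then -0.87 in *Gli1*+ and -0.17 in *Gli1*- tendon. Without cell filter and doublet removal the 21 dpi ratio was -0.86 in *Gli1*+ endothelial-like cells. In cells of 1 sex the endothelial-like ratios of *Gli1*+ tendon were -0.99 and -1.43. Within *Gli1*- clusters the order was not the same. The *Myh11* cluster held 182, 49.95 and 63.7 CPM, but the *Kcnj8* cluster 231, 199 and 253 CPM. The endothelial *Cd36* cluster held 517, 404 and 740.4 CPM and the *Selp* cluster 133, 202 and 265 CPM, so that both were higher at 21 dpi than before injury while the class was lower. Endothelial markers in mural-like cells, 6 of 6 at 10 CPM or more before injury, summed to 152, 46.4 and 20.3 CPM in *Gli1*+ tendon and 1245, 321 and 87.2 CPM in *Gli1*- tendon, and their part in the mural-like values was not tested. Mural-like cells were 118 to 1039 per library.

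Mesenchymal-like cells did not share the pattern of the vascular classes for *Pdgfd*. Their levels were 79.3, 75.2 and 87.1 CPM in *Gli1*+ tendon and 50.8, 71.1 and 84.7 CPM in *Gli1*- tendon, all 4 ratios over uninjured lay within 2-fold, and the largest was 0.74 [0.66, 0.81] at 21 dpi in *Gli1*- cells. In *Gli1*+ tendon the ratios were -0.08 [-0.15, 0.00] at 7 dpi and 0.14 [0.06, 0.21] at 21 dpi, and in cells of 1 sex 0.43 [0.27, 0.60] and -0.01 [-0.10, 0.08], each on the other side of 0. In *Gli1*- male cells the 7 dpi ratio was 0.51. Without tenocyte-like and chondrocyte-like clusters *Pdgfd* stood at 62.5, 76.6 and 90.0 CPM in *Gli1*+ tendon, higher at both times after injury. It stood at 49.4, 70.8 and 87.2 CPM in *Gli1*- tendon. The 44 chondrocyte-like cells of uninjured *Gli1*+ tendon, too few for a level, held 9.90% of all *Pdgfd* UMIs of that library. Mesenchymal-like cells of that library held *Bglap* at 1069 CPM and *Col2a1* at 35.0 CPM, with *Bglap* at 3.59 CPM in the tenocyte-like cells. The chondrocyte-like cells of *Gli1*+ tendon at 21 dpi held 686 CPM of *Bglap* and 14778 CPM of *Col2a1*. The name was given to the whole cluster and need not describe its uninjured cells, which may be bone-like. The share of all *Pdgfd* UMIs held by mesenchymal-like cells was 23.9% in uninjured and 84.0% and 61.4% in injured *Gli1*- tendon, while their share of cells was 53.4%, 80.8% and 69.9%.

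**Figure D5:**
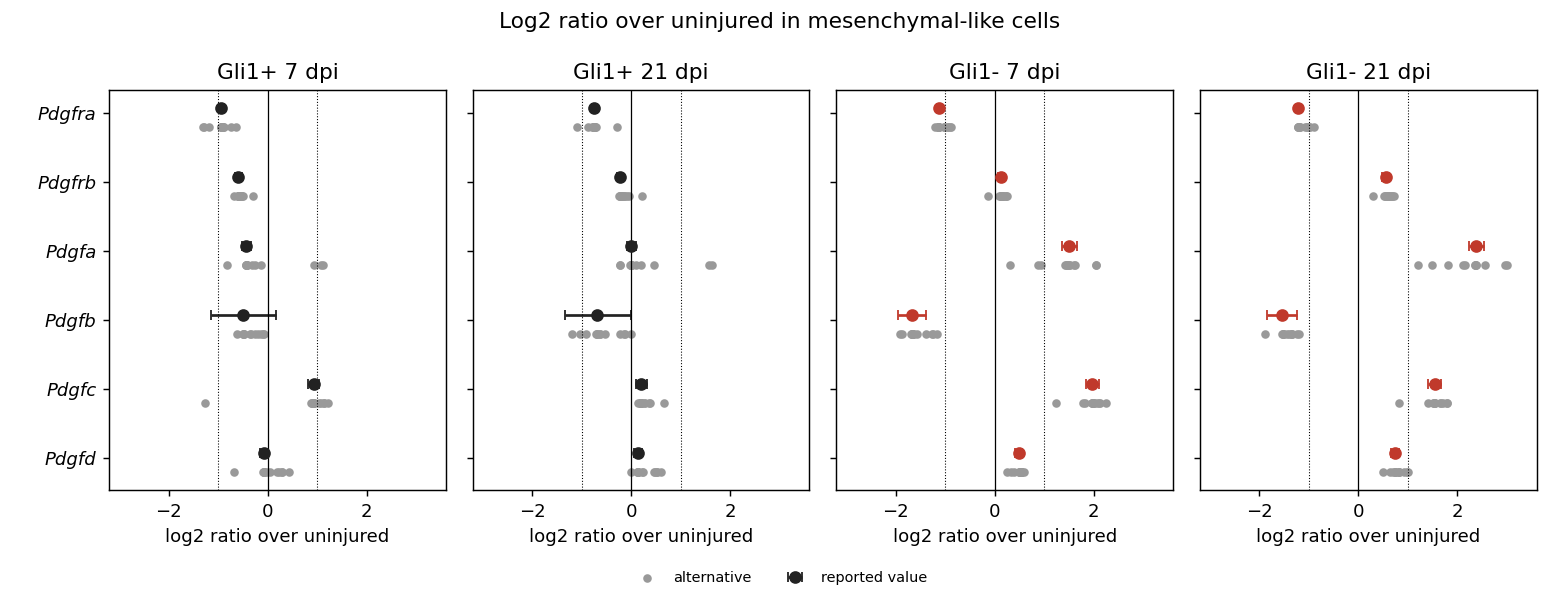
Log2 ratio of each gene over uninjured tendon in mesenchymal-like cells, for the 4 injured libraries; dark or red points are the reported values with exact binomial 95% intervals, grey points the values under alternative processing, and dotted lines mark 2-fold. *Pdgfra* lies below 0 in all 4 panels, and the *Gli1*- values of *Pdgfa* and *Pdgfc* lie above 0 throughout.

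Counted over the 6 genes, none was past 2-fold in mesenchymal-like *Gli1*+ cells at 7 or 21 dpi over uninjured, where 33.6% and 27.4% of all genes with at least 50 UMIs were past 2-fold in either direction. In *Gli1*- cells the same 4 genes were past 2-fold at both times, *Pdgfra* and *Pdgfb* lower and *Pdgfa* and *Pdgfc* higher, against 29.5% and 28.4% of all genes. The comparisons at 7 and 21 dpi share the uninjured library. The median log2 ratio over all genes lay below 0, at -0.18 and -0.32 in *Gli1*+ tendon and -0.07 and -0.11 in *Gli1*- tendon. TMM scaling shifts the ratios by 0.30 and 0.46 in *Gli1*+ tendon and 0.10 and 0.18 in *Gli1*- tendon. With it, *Pdgfc* in *Gli1*+ cells was past 2-fold at 7 dpi, at 1.22. Without tenocyte-like and chondrocyte-like clusters 13 of the 24 ratios were past 2-fold instead of 8, and at Leiden resolution 1.0 there were 4, or 8 with the unnamed cluster put back.

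Between the sorts, the difference was largest in uninjured tendon. Mesenchymal-like *Gli1*+ cells there had a log2 ratio over *Gli1*- cells of 2.31 [2.15, 2.47] for *Pdgfa*, 1.35 [1.19, 1.51] for *Pdgfc*, -2.24 [-2.84, -1.69] for *Pdgfb*, 0.79 [0.71, 0.86] for *Pdgfrb*, 0.64 [0.55, 0.74] for *Pdgfd* and -0.56 [-0.60, -0.52] for *Pdgfra*. Thus 3 of the 6, *Pdgfa* and *Pdgfc* higher and *Pdgfb* lower in *Gli1*+ cells, were past 2-fold, against 16.5% of all genes. In male cells of both sorts, 595 and 4082 in number, the ratios were 2.75 for *Pdgfa*, 1.20 for *Pdgfc*, -2.13 for *Pdgfb*, 0.68 for *Pdgfrb* and -0.79 for *Pdgfra*. That of *Pdgfd* was 0.11 [-0.07, 0.28] in these cells, with an interval that includes 0. Without tenocyte-like and chondrocyte-like clusters, *Pdgfra* stood at 447 CPM in uninjured *Gli1*+ and 505 CPM in uninjured *Gli1*- tendon. These values were closer than the 332 and 489 CPM of the whole class. *Pdgfrb* then stood at 123 and 74.3 CPM and *Pdgfd* at 62.5 and 49.4 CPM. At Leiden resolution 1.0 the ratio of *Pdgfc* was 0.63, short of 2-fold, and 1.35 with the unnamed *Gli1*- cluster put back. That of *Pdgfa* was 1.23 without tenocyte-like and chondrocyte-like clusters, with 16.5 CPM in *Gli1*+ tendon against 7.05 CPM in *Gli1*- tendon, and 1.40 with single-marker gates. It was 1.73 at Leiden resolution 1.0 and 1.11 without doublet removal, and 2.31 and 2.29 with the unnamed clusters put back. At 7 dpi only *Pdgfb* passed 2-fold, at -1.06 [-1.49, -0.65], against 5.11% of all genes, and at 21 dpi again only *Pdgfb*, at -1.39 [-1.83, -0.96], against 2.57%. The 6 endothelial markers in mesenchymal-like cells summed to 27.8 CPM in *Gli1*+ and 66.2 CPM in *Gli1*- tendon at 7 dpi. At 21 dpi they summed to 26.3 and 57.9 CPM, and the part of endothelial RNA in both calls was not tested. The 7 dpi call of *Pdgfb* was lost with joint clustering of all 6 libraries (-0.99), with means of per-cell CPM (-0.59) and after thinning (-0.36). Under single-marker gates, which left 60 *Gli1*+ cells at 7 dpi, *Pdgfa* was 1.47 and *Pdgfc* -1.77. The other 5 genes differed between sorts at 21 dpi by at most 0.10 in log2 ratio.

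Summed over all kept cells, levels also follow the mix of cell classes. Over uninjured tendon, 2 of the 6 genes were past 2-fold at 7 dpi in each sort, *Pdgfb* lower and *Pdgfc* higher, against 39.6% of all genes in *Gli1*+ tendon and 32.4% in *Gli1*- libraries. At 21 dpi these were 3 in *Gli1*+ (*Pdgfb* lower, *Pdgfa* and *Pdgfrb* higher, against 36.7%) and 4 in *Gli1*- tendon (*Pdgfra* and *Pdgfb* lower, *Pdgfa* and *Pdgfc* higher, against 28.7%). The last *Pdgfra* and *Pdgfa* calls, at -1.02 and 1.12, were lost under some settings: *Pdgfra* was -0.78 with TMM scaling, and *Pdgfra* and *Pdgfa* were -0.87 and 0.72 without cell filter and doublet removal, -0.62 and 0.74 with means of per-cell CPM and -0.80 and 0.80 after thinning. *Pdgfra* illustrates the mix, as its level over all *Gli1*+ cells was 123, 141 and 163 CPM, higher after injury, while that in mesenchymal-like cells was lower.

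Of 56 further genes of the pathway, 54 in *Gli1*+ tendon and 53 in *Gli1*- comparisons had enough UMIs. In mesenchymal-like cells 3 were past 2-fold higher and 15 lower at 7 dpi in *Gli1*+ tendon and 4 higher and 14 lower in *Gli1*- tendon. At 21 dpi the counts were 3 and 12 and 6 and 13. In all these are 33.3%, 34.0%, 27.8% and 35.8% of the list, near the share of all genes, and the median log2 ratios of -0.41, -0.43, -0.42 and -0.38 stood below those of all genes given above. Of the 22 intracellular signalling genes, such as PI3K subunits, *Grb2* and *Shc1*, 2 to 4 were past 2-fold in any comparison. Of the 9 negative regulators 3 or 4 were lower and none was higher, and of the 6 early growth-factor response genes, such as *Fos* and *Egr1*, 2 to 4 were lower and none was higher. These are 33.3% to 44.4% and 33.3% to 66.7% of lists of a few genes, against the 27.4% to 33.6% of all genes. Of 5 class III receptor and ligand genes other than PDGF with enough UMIs, 3 or 4 were lower in each comparison and 1, *Csf1r*, named here after its value was seen, was higher in *Gli1*- tendon at 21 dpi.

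Among the negative regulators, *Spry1* and *Spry4*, feedback inhibitors of receptor tyrosine kinase signalling, were past 2-fold lower in all 4 injured libraries. *Spry1* stood at 78.8, 17.8 and 27.6 CPM in *Gli1*+ tendon and 123, 19.5 and 27.0 CPM in *Gli1*- mesenchymal-like cells. *Spry4* stood at 21.4, 4.15 and 4.01 CPM and 28.1, 5.91 and 5.49 CPM. The receptor phosphatase gene *Ptprj* was 147, 40.03 and 58.5 CPM and 174, 44.4 and 61.9 CPM. Of proteases, *Plau*, the urokinase gene, whose product can cut PDGF-D, had 63.9, 32.1 and 21.4 CPM and 145, 43.1 and 24.6 CPM, and *Pcsk5*, a proprotein convertase gene, had 208.5, 519 and 271 CPM and 171, 520.4 and 342 CPM. *Sparc*, whose product binds PDGF-B, had 4068, 10395 and 13501 CPM and 2777, 11589 and 12790.1 CPM. The receptor-like gene *Pdgfrl* had 138, 139.8 and 278 CPM and 59.0, 128 and 211 CPM, the sphingosine kinase gene *Sphk1* had 19.2, 27.1 and 45.1 CPM and 5.06, 27.8 and 47.7 CPM, and *Flt3l*, a ligand gene of a related receptor, had 11.3, 3.26 and 3.68 CPM and 20.4, 4.14 and 4.56 CPM.

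For each of the 6 genes, the 5 whose levels were most alike over 28 library-by-class units were taken among 16239 genes, by Pearson's r of log2(CPM + 1). The units share libraries and depth, and r is a description. *Pdgfra* went with *Has1* (0.944), *Pi16* (0.942), *Ifi205*, *Adgrd1* and *Serpinf1*. *Pdgfrb* went with *Gm17501* (0.946), *Cacna1c* (0.943), *Pla2r1*, *Prkg1* and *Mfge8*. *Pdgfa* had lower values, 0.873 for *P3h2* and 0.839 for *Csrp1*, followed by *Sort1*, *Arhgef16* and *Ublcp1*. *Pdgfb* went with *Adgrg1* (0.928), *Pim3*, *Unc13b*, *Map3k11* and *Afap1l1*, *Pdgfc* with *Aldh18a1* (0.867), the tendon gene *Tnmd* (0.857), *Hdlbp*, *Wls* and *Fzd2*, and *Pdgfd* with *Ldb2* (0.972), *Fbxl7* (0.955), *Fam13c*, *Gng11* and *Fat4*. Among the 6 themselves the highest r was 0.564 for *Pdgfrb* and *Pdgfd*, and *Pdgfb* and *Pdgfc* had the lowest, -0.634.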

How the data were processed

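The authors sorted cells and prepared 3 prime libraries, and deposited raw counts, UMIs of each gene in each barcode; matrix headers name Cell Ranger 9.0.0, while the submitters' processing notes list Cell Ranger 3.1.0, STAR and mm10, so the build is uncertain and no coordinates are given. Barcodes per library were 8236 to 16437, with 72196599 to 135202247 UMIs. Cells were kept with at least 200 genes and 1000 UMIs, at least 0.7 for log10 genes divided by log10 UMIs, and at most 5% mitochondrial and 5% hemoglobin UMIs. Scrublet in scanpy 1.11.5 scored doublets, and the top 0.8% per 1000 cells were removed. The 3 libraries of a sort were clustered jointly on 2000 variable genes that left out the 6 genes and all markers, with 30 principal components, 20 neighbors and Leiden (leidenalg 0.10.2) resolution 0.5. Clusters were named from marker lists with a pseudocount of 10 CPM, and the thresholds for names were set after seeing the data. Levels are reported for classes of at least 50 cells, and shares of cells or UMIs for smaller classes too.

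The members and lists were chosen with earlier results of these data known. A gene entered a share of all genes with at least 50 UMIs in the pair of libraries compared. Pathway genes were named when past 2-fold in the same direction in both sorts, at 7 or 21 dpi, up to 4 each way and time, and for likeness the 5 highest correlations were named; clusters were named in the text after their values were seen. Thinned shares use 2000 UMIs per cell and leave out shallower cells. Intervals are exact. They were run on counts simulated with counting error only, so that run says nothing about spread between cells or mice. edgeR 4.0.16 (R 4.3.3) gave the TMM factors and nothing else. Since each condition is 1 library of pooled mice, no test was made and no library could be left out. Alternatives were TMM scaling, no filter, no doublet removal, means of per-cell CPM, thinning, resolution 1.0, joint clustering, single-marker gates and, added after seeing the data, cells of 1 sex, resolution 1.0 and no doublet removal with unnamed clusters put back where most of their cells were mesenchymal-like, and the class without tenocyte-like and chondrocyte-like clusters, as named at either resolution. Those of vascular classes were also added then. Some marker genes and the results that need them are not reported here.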

Additional observations from a re-analysis of the deposited data

Results flagged for a closer look

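In 3 results the sorts moved in opposite directions after injury in mesenchymal-like cells, with both intervals clear of 0. With 1 library per sort and time, the difference was not tested. *Pdgfa* at 7 dpi had a log2 ratio over uninjured of -0.43 in *Gli1*+ and 1.505 in *Gli1*- cells, a difference of -1.93. *Pdgfrb* differed by -0.71 at 7 dpi, with -0.59 against 0.12, and by -0.78 at 21 dpi, with -0.24 against 0.55. Without tenocyte-like and chondrocyte-like clusters *Pdgfa* was higher after injury in both sorts at 7 dpi, at 1.08 and 2.04, and the single-marker gates gave 0.94 and 0.87, the former on 60 of 7002 *Gli1*+ cells and 20 UMIs. For *Pdgfrb* at 21 dpi TMM scaling gave 0.22 in *Gli1*+ and 0.73 in *Gli1*- cells, and at 7 dpi *Gli1*- cells gave -0.13 without doublet removal and 0.14 with the unnamed clusters of that setting put back. The uninjured libraries of the 2 sorts also differ in the sex of their cells, and in male cells alone the 7 dpi ratios were -0.83 and 1.61 for *Pdgfa* and -0.51 and 0.09 for *Pdgfrb*.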

How the results depend on the processing

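No paired analysis was possible because the labels carry no replicate numbers and each sort and time has 1 library. The sorts were compared within each time. A fit with time as the block, which would take changes of the sort difference between times as error, was not run. Of 24 ratios past 2-fold in mesenchymal-like cells or all cells, the direction held in all 219 values under alternatives, and 198 stayed past 2-fold. Of the 8 printed for endothelial-like and mural-like cells it held in 57 of 58 values, run after seeing the data and without TMM scaling, and 48 stayed past 2-fold; the exception was *Pdgfa* in endothelial-like *Gli1*+ cells at 21 dpi, at -0.017 with single-marker gates. The count over uninjured in mesenchymal-like cells was 8 of 24, 4 at Leiden resolution 1.0 (8 with the unnamed *Gli1*- cluster of that setting put back) and 13 without tenocyte-like and chondrocyte-like clusters (12 as named at resolution 1.0). The count between sorts, 5 of 18 over the 3 times, ranged from 4 to 6, and that over all cells, 11 of 24, from 9 to 11. At 7 dpi alone the single call between sorts, *Pdgfb*, was lost under 3 settings. Over all ratios in mesenchymal-like cells or all cells, 625 of 658 values kept their sign. The single-marker gates leave out cells with any *Krt14* UMI and kept 60 of 7002 mesenchymal-like *Gli1*+ cells at 7 dpi, where *Pdgfc* turned to -1.26 on 3 UMIs and *Pdgfb* had 0 UMIs, which gives no ratio. Under these gates mesenchymal-like cells were the highest class for *Pdgfc* in 1 of 6 libraries. With no minimum of UMIs, 44.1% to 48.6% of genes were past 2-fold over uninjured in mesenchymal-like cells. Depth limits *Pdgfb* there most, with 30 to 225 UMIs per library.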
